A study of Mus musculus with 6 samples.

Results

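The sarcomeric myosin heavy chain genes were examined as a family in quadriceps muscle of male C57BL/6 mice aged 20 weeks. The family was taken as 8 genes, Myh1, Myh2, Myh3, Myh4, Myh6, Myh7, Myh7b and Myh8, matched by symbol to the Ensembl identifiers of the count table, and all 8 were found among its 48795 genes. MERKO mice carry a muscle-specific deletion of Er_alpha (gene Esr1), and wildtype mice served as control, with 3 libraries of total RNA per group. The sources used here name neither the Cre driver of the deletion nor the animal behind each library. The p-values therefore describe the spread among the 6 libraries, which may in part be technical. The comparison asked whether the myosin isoform make-up of the muscle differed between MERKO and control. No isoform differed between the genotypes by more than the spread between libraries. In each of the 8 genes the fold range among libraries of 1 genotype exceeded the ratio of the 2 genotype means, with a 90.7-fold range for Myh7 within MERKO. Extremes are set here against means, so this is a description and no test.

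Myosin heavy chain is the motor protein of the thick filament, and the isoform that a fibre makes is a main determinant of its shortening speed. Myh7 encodes the slow type I chain, which is also the beta chain of the heart. Myh2, Myh1 and Myh4 encode the fast chains IIa, IIx and IIb, listed in order of increasing speed. Myh3 and Myh8 encode the embryonic and perinatal chains of developing and regenerating fibres. Myh6 encodes the alpha chain of the heart, and Myh7b an ancient slow-type chain that is little expressed as protein in limb muscle. The mouse quadriceps is a fast muscle of mostly IIb and IIx fibres, with slower fibres concentrated in its deep part.

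In the GENCODE annotation of GRCm38 the fast and developmental genes lie side by side on the plus strand of chromosome 11. Their spans are 67078300 to 67102291 for Myh3, 67171027 to 67197517 for Myh2, 67200052 to 67224575 for Myh1, 67238029 to 67260446 for Myh4 and 67277124 to 67308634 for Myh8. Myh6 (54941921 to 54966927) and Myh7 (54970684 to 54994626) are neighbours on the minus strand of chromosome 14, and Myh7b (155611212 to 155634307) lies on the plus strand of chromosome 2. In the count table they carry the identifiers ENSMUSG00000056328 (Myh1), ENSMUSG00000033196 (Myh2), ENSMUSG00000020908 (Myh3), ENSMUSG00000057003 (Myh4), ENSMUSG00000040752 (Myh6), ENSMUSG00000053093 (Myh7), ENSMUSG00000074652 (Myh7b) and ENSMUSG00000055775 (Myh8).

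The coding sequences were compared because reads that match several members may be dropped or split in counting, and the handling of such reads is not given in the sources used here. Over aligned coding bases, Myh6 and Myh7 were 91.7% identical, Myh1 and Myh2 91.1%, and Myh1 and Myh4 90.2%, whereas Myh7b matched no member by more than 72.3%. Of all windows of 50 bases in the longest coding transcript, 26.1% in Myh1, 26.7% in Myh2, 18.6% in Myh4, 19.9% in Myh8, 22.6% in Myh6 and 22.2% in Myh7 also occurred in another member, against 3.66% in Myh3 and 0% in Myh7b. For windows of 100 bases the shares lay between 0% (Myh3 and Myh7b) and 11.4% (Myh6). Most of each transcript was therefore distinct, but a part of the reads of the abundant genes could be assigned to more than one of them. The longest run common to the coding sequences of Myh1 and Myh4 had 161 bases, starting at coding base 3250 of Myh1 and 3241 of Myh4, and is shown because a read inside it fits both genes.
Myh1 and Myh4: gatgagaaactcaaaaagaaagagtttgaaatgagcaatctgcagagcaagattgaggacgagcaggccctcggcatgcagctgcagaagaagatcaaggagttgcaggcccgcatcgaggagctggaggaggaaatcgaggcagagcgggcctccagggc

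The sequences upstream of the 4 isoforms of adult limb fibres are shown because the comparison turns on these isoforms. They are RefSeq promoter sequences of GRCm38.p6, read along the gene, and end before the start site that lies furthest upstream in RefSeq or GENCODE. The intervals are chr14:54994627-54994876 (minus strand) for Myh7 and, on the plus strand, chr11:67170777-67171026 for Myh2, chr11:67199852-67200051 for Myh1 and chr11:67237562-67237811 for Myh4. The GENCODE start of Myh4 lies 217 bases downstream of the RefSeq start. Capitals mark every match, on either strand, to the E-box CANNTG, the MCAT core GGAATG, the MEF2 site and the CArG box, and on the printed strand to TATAAA.
Myh7: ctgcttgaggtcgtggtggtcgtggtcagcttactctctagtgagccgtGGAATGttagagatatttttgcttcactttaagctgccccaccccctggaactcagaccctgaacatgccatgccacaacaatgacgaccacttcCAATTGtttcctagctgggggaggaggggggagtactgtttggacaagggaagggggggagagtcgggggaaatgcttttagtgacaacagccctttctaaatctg
Myh2: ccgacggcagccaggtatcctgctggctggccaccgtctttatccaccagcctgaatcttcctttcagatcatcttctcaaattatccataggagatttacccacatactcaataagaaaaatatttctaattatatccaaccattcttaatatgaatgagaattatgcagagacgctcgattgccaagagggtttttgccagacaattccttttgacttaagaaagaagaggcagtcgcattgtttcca
Myh1: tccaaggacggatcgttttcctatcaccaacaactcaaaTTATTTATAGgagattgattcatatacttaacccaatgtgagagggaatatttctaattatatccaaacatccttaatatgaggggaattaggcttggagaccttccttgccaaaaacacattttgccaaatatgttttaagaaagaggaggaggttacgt
Myh4: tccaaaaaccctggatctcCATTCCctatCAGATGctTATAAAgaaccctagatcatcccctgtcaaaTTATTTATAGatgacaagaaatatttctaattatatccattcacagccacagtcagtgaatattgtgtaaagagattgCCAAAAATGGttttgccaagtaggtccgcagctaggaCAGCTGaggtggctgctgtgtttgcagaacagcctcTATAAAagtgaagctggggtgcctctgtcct

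The same 10 bases, TTATTTATAG, matched the MEF2 site upstream of 3 members, Myh1 (-211 to -202 from the RefSeq start), Myh4 (-182 to -173) and Myh8 (-99 to -90). A MEF2 site was found in 1.69% of the 32851 RefSeq promoters searched over the same 250 bases. The Myh2 window held none of the 5 motifs, which says only that these letters are absent from it. The CArG box in Myh4 (-104 to -95) was the sole one among the members, against 1.47% of all promoters, and TATAAA was found in Myh1, Myh3 and Myh4, against 7.59%. The TATAAA of Myh1 (-32 to -27) and its MCAT core (-16 to -11) lie between its GENCODE and RefSeq starts, past the end of the printed stretch. An E-box was found in Myh3, Myh4, Myh6, Myh7, Myh7b and Myh8, against 66.2% of all promoters. The MCAT core was found in Myh1, Myh4, Myh6 and Myh7, against 12.6%. These matches are descriptions of the letters, and no binding was measured.

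The cardiac and slow-type genes also share a small RNA family. Introns of Myh6, Myh7 and Myh7b hold the hairpins of miR-208a, miR-208b and miR-499, whose mature forms are given from RefSeq with bases 2 to 8, the seed, in capitals.
mmu-miR-208a-3p: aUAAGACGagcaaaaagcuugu
mmu-miR-208b-3p: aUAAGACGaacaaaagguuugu
mmu-miR-499-5p: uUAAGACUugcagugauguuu

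The seeds of the 2 miR-208 forms are identical, and that of miR-499-5p differs from them in its last base. All 3 hairpin genes had 0 counts in every library, and mature miRNAs were not measured.

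The libraries differed in markers of other tissues, and MERKO 1 stood apart. CPM is the count scaled to the library's size and its TMM factor. Summed CPM of 6 tendon markers was 389 in MERKO 1, 195 in MERKO 2, 79.4 in MERKO 3 and 27.9 to 79.9 in control. That of 5 nerve markers was 29.8 in MERKO 1 and 11.2 to 19.3 elsewhere. Adipocyte markers (6 genes) summed to 14.6 CPM in MERKO 1, to 44.7 at most in MERKO and to between 45.0 and 296 in control. None of these markers was at 0 in all libraries. Smooth muscle markers (5 genes), which include Des, a gene that muscle fibres also express, summed to 2068 to 2365 CPM, and muscle spindle markers (4 genes) summed to at most 3.68 CPM, in MERKO 1. Control 1 had 79.9 CPM of the tendon and 19.3 CPM of the nerve markers, the most among the controls but below MERKO 1. Its nerve level was also above those of MERKO 2 (18.8) and MERKO 3 (18.6). Muscle fibre markers (5 genes) summed to 57612 CPM in MERKO 1 and to 71616 to 84150 CPM elsewhere. Mylpf, Tnnt3 and Atp2a1 among them are also on the list of fast-fibre partners below, so the 2 lists are not independent. Outside that list, Acta1 had 19874 CPM in MERKO 1 and 21183 to 24749 elsewhere, and Ckm 13937 against 19695 to 23586. The part of these tissue differences in the myosin values was not tested. Library totals ran from 14935532 to 44282448 counts and the rRNA gene model took between 0.0433% and 32.4% of counts, with 6.19% in MERKO 1 and 11.1% in control 1.

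Levels of different genes were compared as CPM per kilobase of exon. Myh4 was the highest in every library, between 6627 and 13501 CPM per kilobase. Myh1 followed with a median of 459.0 over the 6 libraries, Myh2 with 62.1, Myh7 with 0.816, Myh8 with 0.303, Myh6 with 0.176, Myh7b with 0.167 and Myh3 with 0.110. The order Myh4, Myh1, Myh2, Myh7 held in 6 of 6 libraries, with Myh4 between 4.16 and 95.5 times Myh1. Below them the order varied between libraries. Myh7 was above Myh8 in 4 of 6 libraries, Myh8 above Myh6 in 4 (in 6 of 6 per kilobase of the longest coding transcript) and Myh6 above Myh7b in 1, whereas Myh7b was above Myh3 in 6 of 6. The ranges of Myh8, Myh6, Myh7b and Myh3 over the libraries overlapped. In bulk muscle, fewer fibres of a type and less RNA per fibre cannot be told apart.

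The 8 genes together took between 6.31% and 7.88% of all counts, and between 7.93% and 10.7% once the rRNA gene model CT010467.1 and the genes of mitochondrial DNA were left out. Within this narrow range the make-up of the family varied widely. Myh4 took 74.9%, 97.0% and 94.6% of the family's counts across MERKO 1 to 3 against 87.7%, 97.4% and 98.8% across control 1 to 3. It was lowest in MERKO 1 and next lowest in control 1, so that each genotype held 1 library with less IIb transcript. The share of Myh1 was 19.0%, 2.76% and 4.44% in MERKO and 9.59%, 2.55% and 1.09% in control. That of Myh2 was 5.73%, 0.196% and 0.908% in MERKO and 2.39%, 0.0715% and 0.0597% in control. Both were highest in MERKO 1 and control 1, and the groups overlapped.

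**Figure D1:**
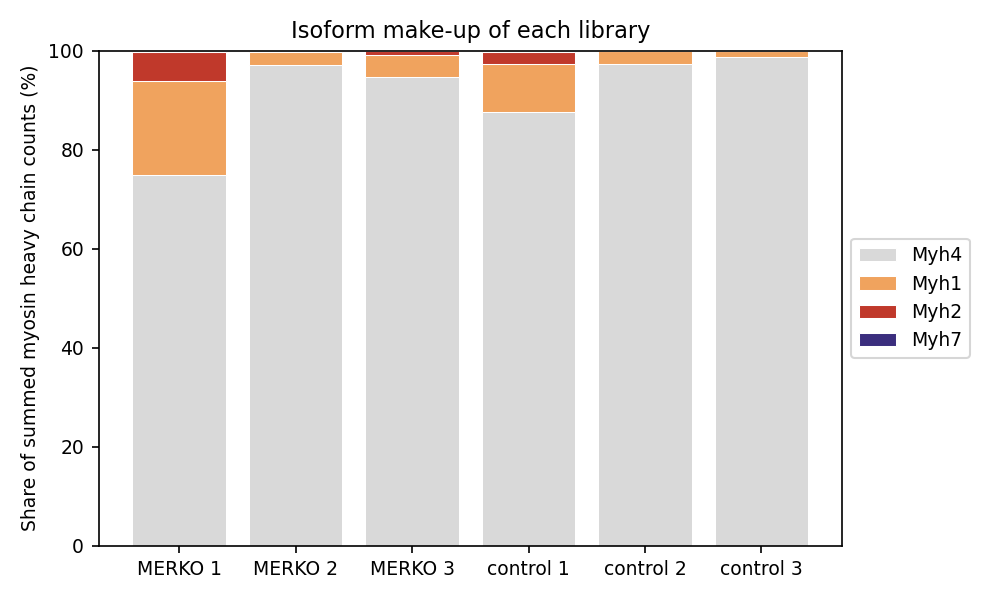
Share of the summed counts of the 8 genes taken by Myh4, Myh1, Myh2 and Myh7 in each library, in percent. Myh4 fills 74.9% of the MERKO 1 bar and 98.8% of the control 3 bar, and Myh7, at up to 0.301%, is too thin to see.

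Myh7 took 0.301% of the family in MERKO 1 and 0.291% in control 1, while the other 4 had 0.00211% to 0.0126%. Exact 95% binomial intervals on these shares, which cover counting error only, were at most 0.129 percentage points wide. The difference between group means (MERKO minus control) was -5.78 points for Myh4, 4.33 for Myh1, 1.44 for Myh2 and -0.00182 for Myh7. The exact two-sided permutation test gave p = 0.5 for Myh4, Myh1 and Myh2 (0.571 after Benjamini-Hochberg adjustment over the 8 genes) and 0.9 for Myh7, where 3 against 3 libraries allow no p below 0.1. The difference was smaller than the SD (n = 3) of either group for Myh4 (12.1 points in MERKO and 6.04 in control), Myh1 and Myh7. That of Myh2 was below the SD of MERKO (3.01 points) and above that of control (1.34 points). Without MERKO 1 the differences turned to 1.20 points for Myh4, -0.814 for Myh1 and -0.287 for Myh2. That of Myh7 was 0.0919 points without control 1, 0.0481 without MERKO 2 and 0.0479 without MERKO 3.

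In the comparison of genotypes over all genes, edgeR's quasi-likelihood test called 0.00734% of the 13628 genes tested at an adjusted p under 0.05, which is the 1 gene Esr1. Esr1, the deleted gene, had 6.75, 9.43 and 7.46 CPM across MERKO 1 to 3 against 25.1, 34.1 and 31.1 CPM across control 1 to 3, so each MERKO library was below each control library. The count of genes called was 0 without MERKO 1 and without MERKO 2 and 11 without MERKO 3. It was 2 both without control 1 and without control 3. Without control 2 it was 1, a gene higher in MERKO and so not Esr1. All 8 myosin genes passed the filter on low counts, and 0 of 8 were called. At an unadjusted p under 0.05 the count was also 0 of 8, where 7.04% of all genes passed, and DESeq2, which called 0.165% of all genes, called 0 of the 7 members for which it gave an adjusted p (none for Myh7). The count at an unadjusted p under 0.05 was 2 of 8 with limma-voom, 4 with no composition factor, 1 with no filter on low counts, 1 without MERKO 1, 5 without control 1, and 6 without both of these libraries. In the order given, 7.9%, 3.1%, 7.2%, 6.2%, 7.9% and 7.6% of all genes passed under these settings. The groups overlapped in CPM in 8 of 8 members, whereas 13.3% of all genes tested had groups that did not overlap (6.17% higher and 7.1% lower in MERKO). The fitted fold change was above 0 in 7 of 8 members, Myh4 at 0.000945 among them, against 52.1% of all genes. Without MERKO 1 it was above 0 in 4 of 8. With no composition factor the median log2 fold change of all genes moved from 0.01 to -0.10 and the share above 0 to 32.3%, while 6 of 8 members were above 0.

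**Figure D2:**
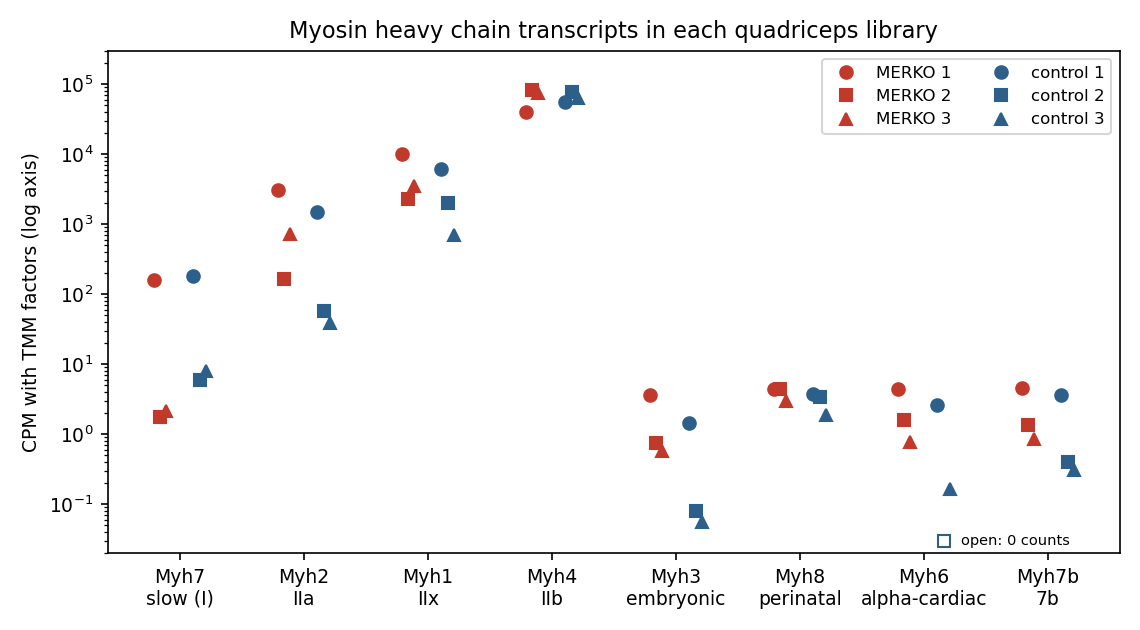
CPM of each myosin heavy chain gene on a log axis, with 1 symbol per library (MERKO red, control blue, and the shape giving the replicate number). MERKO 1 and control 1 are the highest 2 libraries for every gene but Myh4 and Myh8, and Myh4 lies between 39867 and 81221 CPM.

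Myh4, the IIb chain, had 39867, 81221 and 75200.5 CPM across MERKO 1 to 3 against 55646, 77121 and 63393 CPM across control 1 to 3. The highest and the lowest library were both MERKO. The group means were 65430 ± 22341 and 65387 ± 10876 CPM (SD, n = 3 each), with a log2 fold change of 0.00 (SE 0.46, 95% interval -1.05 to 1.05, adjusted p = 0.9997, edgeR). With no composition factor the value was -0.17.

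Myh1, the IIx chain, had 10132, 2307 and 3526 CPM across the MERKO libraries against 6083, 2021 and 701 CPM across the controls. Within control it differed 8.68-fold between libraries, a spread larger than that of 99.2% of the genes tested that had counts above 0 in every library. Its log2 fold change was 0.86 (SE 0.78, -0.93 to 2.65, adjusted p = 0.821), and -0.00926 without MERKO 1, 1.97 without control 1 and 0.39 without control 3.

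Myh2, the IIa chain, stood at 3050 (MERKO 1), 164 (MERKO 2) and 722 (MERKO 3) CPM and at 1514, 56.7 and 38.3 CPM in control 1 to 3. Its libraries were in the same order as those of Myh1, namely MERKO 1, control 1, MERKO 3, MERKO 2, control 2 and control 3. The spread within control was 39.5-fold, and the log2 fold change between genotypes was 1.29 (SE 1.41, -1.95 to 4.53, adjusted p = 0.854). It was -0.27 without MERKO 1, 4.79 without control 1, 0.76 when control 2 was omitted and 0.74 when control 3 was, and adjusted p was 0.465 at the least of these 4. With no composition factor Myh2 was called (log2 fold change 1.39, adjusted p = 0.00631, edgeR), and over all alternatives its adjusted p ran from that value to 0.9999.

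Myh7, the slow chain, had 160, 1.77 and 2.12 CPM across the MERKO libraries against 185, 6.00 and 8.07 CPM across the controls. It was high in 1 library of each genotype and low in the rest. The 90.7-fold spread within MERKO exceeded that of 99.9% of the genes tested that had counts above 0 in every library. The log2 fold change was -0.26 (SE 1.67, -4.08 to 3.57, adjusted p = 0.979). This value depended on which of the high libraries was kept. It was -5.07 without MERKO 1 (adjusted p = 0.779), 2.95 without control 1 (adjusted p = 0.688), 0.30 without MERKO 2, 0.30 without MERKO 3, and -0.79 both without control 2 and without control 3. Over all alternatives its adjusted p lay between 0.0594 and 0.999. The lowest came with both high libraries left out, where the log2 fold change was -1.86, in a fit of 2 against 2 libraries that were picked by their Myh7 level. In that fit Myh2 had a log2 fold change of 3.24 (adjusted p = 0.129) and Myh1 of 1.10 (adjusted p = 0.588), of opposite sign to the slow chain.

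**Figure D3:**
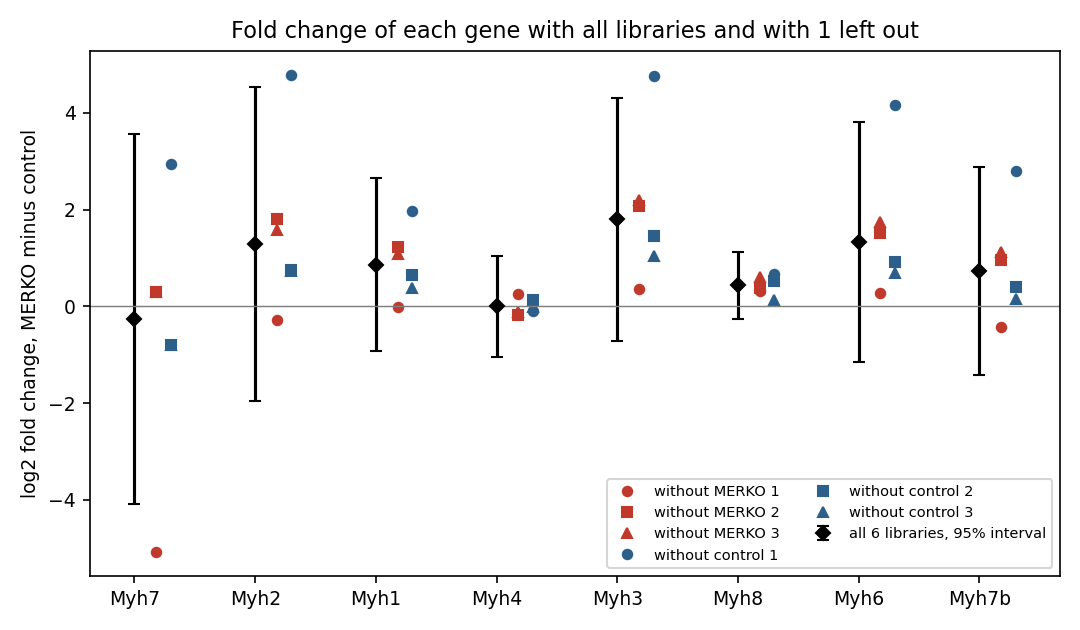
Log2 fold change (MERKO minus control) of each gene with its 95% interval from all 6 libraries (black diamonds), and with 1 library left out (red for MERKO, blue for control, shapes for the replicate number). Leaving out MERKO 1 or control 1 moves Myh7 to -5.07 or 2.95, whereas Myh4 stays between -0.18 and 0.26.

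The developmental and cardiac genes and Myh7b were near the lower limit of detection. Myh3, the embryonic chain, had 119, 9 and 12 counts across MERKO 1 to 3 against 34, 1 and 3 across control 1 to 3. In CPM it was highest in MERKO 1 (3.62) and control 1 (1.43). Its log2 fold change was 1.80 (SE 1.10, -0.72 to 4.32, adjusted p = 0.732), and between 0.36 without MERKO 1 and 4.76 without control 1, with 1.05 without control 3. With no composition factor it was called at 1.79 (adjusted p = 0.04795, edgeR), the lowest of its alternatives, which reached 0.9999. Myh8, the perinatal chain, was the most even member beside Myh4, with 4.47, 4.38 and 2.98 CPM across the MERKO libraries against 3.74, 3.39 and 1.86 CPM across the controls (a log2 fold change of 0.44, SE 0.30, -0.25 to 1.12, adjusted p = 0.755), with 0.14 without control 3 and 0.67 without control 1.

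Myh6, the alpha cardiac chain, had 145, 19 and 16 counts in MERKO and 62, 0 and 9 counts in control. The count of 0 in control 2 allows a share of the family's counts of up to 0.000368% (exact 95% binomial limit). The log2 fold change was 1.34 (SE 1.08, -1.14 to 3.82, adjusted p = 0.801), between 0.28 without MERKO 1 and 4.18 without control 1. Since Myh6 and Myh7 share long runs of sequence, part of the Myh6 counts in the libraries with high Myh7 could come from Myh7 reads, which was not tested. Markers of heart muscle were at or near 0. Of 6 such markers, Nppa and Myl7 had 0 counts in every library, and the summed level of the 6 was 0.168 to 0.577 CPM in MERKO and 0.184 to 1.03 CPM in control.

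Myh7b had 4.59, 1.35 and 0.866 CPM across the MERKO libraries against 3.61, 0.395 and 0.312 CPM across the controls. It was highest in MERKO 1 and control 1. The log2 fold change was 0.74 (SE 0.94, -1.42 to 2.89, adjusted p = 0.872), and -0.42 without MERKO 1, 2.81 without control 1, 1.13 without MERKO 3, 0.39 when control 2 was omitted and 0.15 when control 3 was. Myh7b thus ordered the 2 highest libraries like Myh1, Myh2, Myh3 and Myh6, whereas in Myh7 control 1 came before MERKO 1.

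With limma-voom the log2 fold changes lay farther from 0, at 2.02 for Myh2, 3.08 for Myh3, 2.87 for Myh6, -0.62 for Myh7 and 1.70 for Myh7b, and 0 of 8 members were called.

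The genes most like each isoform of adult limb fibres were found by the Euclidean distance between log2 CPM profiles over the 6 libraries, each profile centred on its own mean, among 12263 genes. The 5 nearest to Myh7 were the slow troponin genes Tnni1 (distance 0.839), Tnnc1 (0.916) and Tnnt1 (2.19) and the slow myosin light chain genes Myl2 (1.68) and Myl3 (2.52). Tnni1, for example, had 18.5, 0.168 and 0.337 CPM across the MERKO libraries against 18.8, 1.10 and 1.18 CPM across the controls. The genes nearest to Myh2 included Bdh1 (1.08), a ketone body enzyme, Myom3 (1.11), an M-band protein, Lrrc52 (1.86) and Ldhb (2.00), the heart-type lactate dehydrogenase subunit. Myom3 had 45.2, 3.11 and 8.23 CPM across the MERKO libraries against 18.3, 1.58 and 0.607 CPM across the controls, in the same library order as Myh2.

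The nearest to Myh1 were Actn2 (0.482), an alpha-actinin of the Z-disc, Arpp21 (0.507), Slc25a34 (0.508), a carrier of the mitochondrial family, Lrrn1 (0.692) and Atp1b1 (0.789), the beta subunit of the sodium pump. Actn2 had 621, 121 and 227 CPM across the MERKO libraries against 317, 98.4 and 50.2 CPM across the controls. The nearest to Myh4 was Mylk4 (0.0972), a kinase of the myosin light chain kinase family, followed by Dop1b (0.155), Pdzd7 (0.168), Sort1 (0.211) and Hipk2 (0.212). Mylk4 had 250, 476 and 440.3 CPM across the MERKO libraries against 347, 460.5 and 376 CPM across the controls, high and low in the same libraries as Myh4. No member was among the 5 nearest genes of these isoforms. The nearest member was Myh7b for Myh7 (rank 28), Myh3 for Myh2 (rank 8), Myh7b for Myh1 (rank 39) and Myh8 for Myh4 (rank 10637). These distances describe 6 libraries and carry no test.

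**Figure D4:**
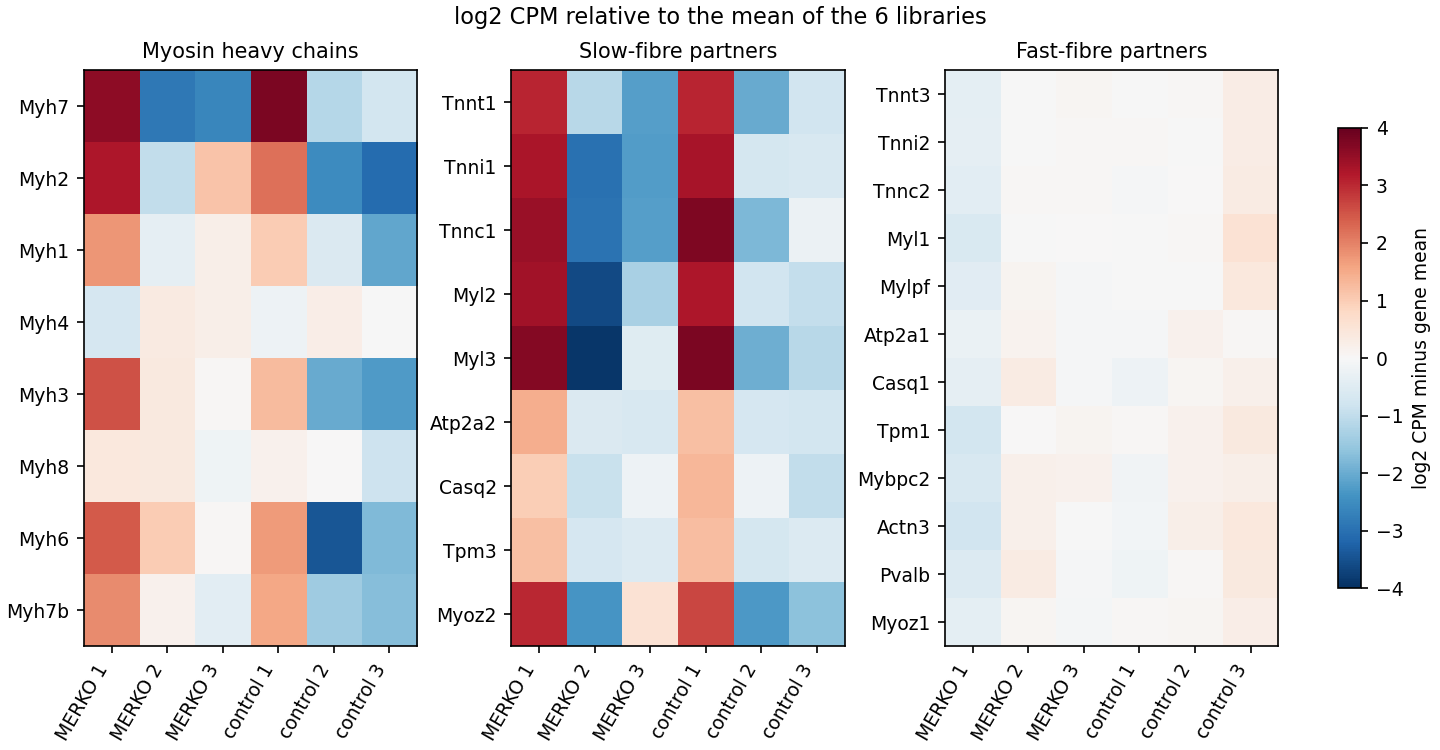
Log2 CPM of the 8 myosin genes, 9 slow-fibre partner genes and 12 fast-fibre partner genes in each library, relative to each gene's mean over the 6 libraries (red higher, blue lower). MERKO 1 and control 1 share high Myh7, Myh2 and slow-fibre partners, while the fast-fibre partners vary little and are lowest in MERKO 1.

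The partner genes of the myosins were counted from lists. Of 9 tested partners of slow fibres (troponins, light chains, the slow calcium pump and others), 5 were higher, 4 lower and 0 called, with a median log2 fold change of 0.01, where that of all genes tested was also 0.01. The split was 7 higher and 2 lower with no composition factor and with limma-voom, and 3 higher and 6 lower with DESeq2. The share of all genes higher under these settings was 32.3%, 51.7% and 55.1%, in that order. The mean centred log2 CPM of the 9 partners was 2.61 in MERKO 1 and 2.61 in control 1. It was from -2.12 to -0.84 elsewhere, high where Myh7 was high. Leaving out MERKO 1 put 9 of 9 lower (median -3.33), and leaving out control 1 put 9 of 9 higher (median 2.68). The 3 with the lowest p were Myoz2, a Z-disc protein (log2 fold change 0.55, SE 1.33), Atp2a2, the slow calcium pump (0.20, SE 0.68), and Casq2, a calcium store protein (-0.18, SE 0.62).

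Of 12 partners of fast fibres, 12 were lower and 0 called, with a median log2 fold change of -0.21. Of all genes tested, 52.1% were higher (median 0.01). All 12 partners stayed lower under RLE scaling and with no composition factor (medians -0.21 and -0.37). With no composition factor, however, only 32.3% of all genes were higher (median -0.10). The count lower was 9 of 12 without MERKO 1 (median -0.09) and 10 of 12 without control 3 (median -0.11). The lowest p belonged to Myl1, a fast light chain, with 3680, 5610 and 5777 CPM across the MERKO libraries against 5564, 5798 and 8490 CPM across the controls (a log2 fold change of -0.40, SE 0.27, adjusted p = 0.754). MERKO 1 was low and control 3 high, with the other 4 libraries together between them. Myoz1, a Z-disc protein, had a log2 fold change of -0.24 (SE 0.17), and Tpm1, a tropomyosin, of -0.37 (SE 0.32).

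Of 16 thick-filament partners and myosin folding factors, 9 were higher, 7 lower and 0 called (median 0.01). Under no composition factor 7 were higher and 9 lower, where 32.3% of all genes were higher. Trim63, the ubiquitin ligase MuRF1 that acts on thick-filament proteins, had 227, 215 and 369 CPM across the MERKO libraries against 472, 339 and 602 CPM across the controls (a log2 fold change of -0.80, SE 0.26, adjusted p = 0.671). Mybph, a myosin binding protein, had 14.9, 124 and 142 CPM across the MERKO libraries against 147, 232 and 282 CPM across the controls (-1.24, SE 0.66, adjusted p = 0.713), with no overlap. Smyd1, a methyltransferase that acts in myosin assembly, had a log2 fold change of -0.23 (SE 0.12, adjusted p = 0.713), also without overlap. These were the 2 of 16 without overlap, against 13.3% of all genes tested, and none of the 3 genes passed the threshold.

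Of 28 regulators reported to act on myosin genes, 18 were higher, 10 lower and 0 called (median 0.06). Under no composition factor 10 were higher and 18 lower. Of all genes tested, 52.1% were higher, and 32.3% under no composition factor. The groups did not overlap in 2 regulators that were higher and 3 that were lower, 5 of 28 in all, against 13.3% of all genes tested. Without MERKO 2 the split was 14 higher and 14 lower (median -0.02), where 52.29% of all genes were higher. Without MERKO 1 it was 22 higher and 6 lower (median 0.11), where 49.65% of all genes were higher. Thrb, a thyroid hormone receptor, had 11.9, 14.7 and 15.7 CPM across the MERKO libraries against 16.8, 20.6 and 18.9 CPM across the controls (a log2 fold change of -0.41, SE 0.14, adjusted p = 0.671). Six4, a homeobox factor of fast fibres, had a log2 fold change of 0.23 (SE 0.10, adjusted p = 0.683), and Myf6, a myogenic factor, of -0.25 (SE 0.11, adjusted p = 0.706). The groups did not overlap in these 3 genes.

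Of 7 tested genes of developing and regenerating fibres, 3 were higher, 4 lower and 0 called (median -0.05), and Mymk, Mymx and Chrng, which were too low to test, had at most 0.289 CPM in any library. Tnnt2, the cardiac and embryonic troponin T, had 1.34, 1.26 and 0.433 CPM across the MERKO libraries against 0.630, 0.473 and 0.423 CPM across the controls (a log2 fold change of 1.00, SE 0.47, adjusted p = 0.713). Myl4, the embryonic light chain, had a log2 fold change of 0.71 (SE 0.34) and Pax7, the satellite cell factor, of -0.63 (SE 0.45).

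The other myosin II heavy chains, outside the family of 8, had 5 of 5 tested members higher, against 52.1% of all genes, and 0 called (median log2 fold change 0.31, and 0.12 without MERKO 1). Without control 3 it was 4 higher and 1 lower. Myh9, a non-muscle chain, had 89.6, 87.5 and 93.8 CPM across the MERKO libraries against 75.2, 75.4 and 71.1 CPM across the controls (a log2 fold change of 0.29, SE 0.08, adjusted p = 0.654), and Myh14, another non-muscle chain, had 35.3, 33.9 and 41.5 CPM against 31.4, 31.1 and 27.2 CPM (0.31, SE 0.11, adjusted p = 0.680). The groups did not overlap in either gene, and 6.17% of all genes tested were higher without overlap. Myh10, also non-muscle, had a log2 fold change of 0.68 (SE 0.38).

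Genes that overlap a member could exchange reads with it, since the strand setting of the counting is not given in the sources used here. Myhas, an antisense RNA that overlaps 515 exon bases of Myh1 and reaches towards Myh4, had 44.8, 48.7 and 29.4 CPM across the MERKO libraries against 23.8, 39.1 and 38.6 CPM across the controls (a log2 fold change of 0.28, SE 0.23, adjusted p = 0.810). The exchange of reads with Myh1 was not tested. The antisense gene 9430073C21Rik overlaps 237 exon bases of Myh2 and had 116, 6 and 11 counts in MERKO and 13, 3 and 13 in control. In CPM it had 3.53, 0.505 and 0.529 across the MERKO libraries against 0.546, 0.237 and 0.239 across the controls. Its log2 fold change was 2.28 (SE 0.82, adjusted p = 0.680, edgeR). Its highest library, MERKO 1, was also that of Myh2. Mhrt, antisense to Myh7 over 484 exon bases, had at most 12 counts, in MERKO 1. Trpc4ap, which meets the end of Myh7b over 37 exon bases, was even, between 63.8 and 68.7 CPM.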

How the data were processed

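Read counts per gene were deposited by the authors as a table of 48795 genes and 6 libraries. Per the submitters' processing notes the tools were STAR 2.5.2b, HTSeq 0.9.1 and DESeq with builds mm10 and GRCm38. The sources used here give neither their roles nor the strand setting nor how multiply placed reads were counted. Symbols matched 48349 identifiers. Coordinates, exon lengths and transcripts come from GENCODE M21 (GRCm38).

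MERKO was tested against control by quasi-likelihood in edgeR 4.0.16 under R 4.3.3 (filterByExpr, TMM factors, genotype as sole term), with Benjamini-Hochberg adjustment over 13628 genes and a threshold of 0.05. CPM values carry TMM factors, and profiles use log2 CPM with a prior count of 2. The biological coefficient of variation was 18.6%. The code was tested on simulated counts. Shares were compared by exact permutation. No 2 libraries of a group were as close as sampling noise alone would make them (chi-square per degree of freedom at least 122). The members, lists and tests were chosen with earlier results of these data known. Named genes were the 8 members, Esr1, the 3 lowest-p genes of each list, the 5 genes nearest to each isoform of adult limb fibres (1 of them is not reported here), and overlapping genes with at least 10 counts in a library. Tnni1, Myom3, Actn2 and Mylk4 were given as examples with values from among the nearest genes after these were seen. DESeq2 1.42.0, limma-voom (limma 3.58.1), other scalings and filters, a replicate block and leaving out libraries were alternatives.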

Additional observations from a re-analysis of the deposited data

How the results depend on the processing

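The count of genes called, 1 with all libraries, was 23 with DESeq2, 93 with no composition factor, 140 with no filter on low counts, 51 with replicate number as a block and 7 without MERKO 1 and control 1 together. With 1 library left out it lay between 0 and 11. The count of myosin genes called stayed at 0 under 18 of 19 alternatives. With no composition factor it was 2, Myh2 (log2 fold change 1.39, adjusted p = 0.00631, edgeR) and Myh3 (1.79, adjusted p = 0.04795). The cause was not tested. The log2 fold change of Myh4, near 0, was -0.00670 with DESeq2, -0.0342 with limma-voom, -0.173 with no composition factor, -0.00300 with no filter, -0.0526 with the block and -0.0414 without MERKO 2 and control 2 together.

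With 1 library left out, the log2 fold change lay between -0.18 and 0.26 for Myh4, -0.00926 and 1.97 for Myh1, -0.27 and 4.79 for Myh2, -5.07 and 2.95 for Myh7, and -0.42 and 2.81 for Myh7b. For Myh3, Myh6 and Myh8 it stayed above 0. Differences of shares then lay between -9.86 and 1.20 points for Myh4, -0.814 and 7.33 for Myh1, -0.287 and 2.48 for Myh2, and -0.101 and 0.0919 for Myh7, whose difference was 1.43e-06 points without MERKO 2 and control 2. Scaling by exon length, taking the 4 adult limb isoforms as the whole and log2 shares left the directions of the 4 shares as they were. The order of median levels was the same with transcript length. That alternative and the list counts under each setting were chosen after seeing the data.

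The replicate numbers were not shown to pair the libraries. Deviations from the group means correlated at 0.45, 0.16 and 0.06 for the same-numbered pairs 1 to 3 across genes, and MERKO 2 correlated best with control 3 (0.18). With the replicate block Myh2 had a log2 fold change of 2.20 (adjusted p = 0.174) and Myh7 of -0.93 (adjusted p = 0.262). At an unadjusted p under 0.05 the block gave 6 of 8 members, where 12.8% of all genes passed. With 3 libraries per group and spreads of up to 90.7-fold within a genotype, the 95% interval of the genotype difference reached from -4.08 to 3.57 for Myh7 and from -1.95 to 4.53 for Myh2 on the log2 scale.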
